A study of Mus musculus with 4 samples.

Results

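The genes described here are 39 hereditary deafness genes of the mouse, chosen by symbol from a fixed list, among the 28002 genes of the count matrices. All 39 symbols were found, each on 1 row. They were read in 4 single-cell RNA libraries of embryonic cochlear ducts, 2 from E12.5 and 2 from E14.5 embryos. All 4 carried the genotype Sox2-GFP/WT, in which green fluorescent protein marks cells that use Sox2, a transcription factor of prosensory epithelium, glia and neural progenitors. The tissue was dissociated and the cells were collected by flow sorting on the fluorescence, and a read molecule of Egfp, its transcript, was found in 73.4, 77.6, 33.8 and 39% of the cells kept in E12.5 replicates 1 and 2 and E14.5 replicates 1 and 2. The labels name no other treatment or genotype, and they name no separate animals behind the 2 libraries of an age, so the p-values below measure only the spread between these samples.

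Hearing depends on hair cells, whose actin-filled stereocilia are joined by tip links that pull open the transduction channel when the bundle bends. The epithelium around them seals the endolymph with tight junctions, and the neurons of the ganglion carry the signal to the brain. At the ages sampled here the cochlear prosensory cells are leaving the cell cycle and hair cells have barely begun to form, whereas the vestibular organs, which share most of the hair bundle proteins, make hair cells earlier. The list spans motors and actin-binding proteins, tricellular junction proteins, hair bundle and transduction proteins, transcription and chromatin factors, the ligand and receptor of HGF signalling, secreted proteins and proteases, metabolic enzymes, and scaffolds.

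Of 6434 barcodes, 5940 were kept, and the median cell of a library held 17976 to 19783.5 unique molecular identifiers (UMIs, 1 per captured RNA molecule). Clusters were found with the 39 genes left out and were named from marker genes. Cells with at least 1 UMI of Epcam, an epithelial adhesion molecule, gave 132, 156, 177 and 504 cochlear epithelial cells in E12.5 replicates 1 and 2 and E14.5 replicates 1 and 2 (this order is kept throughout), and 83, 114, 30 and 242 vestibular epithelial cells. There were 82, 112, 120 and 88 ganglion neurons, 36, 42, 88 and 142 glia and 45, 67, 231 and 72 mesenchymal cells. These 5 classes held 2563 of the 5940 cells kept. Clusters outside them included some led by Gng13, Neurod6 and Pomc, markers of olfactory neurons, cortical neurons and pituitary. The summed cochlear markers stood at 1107 to 1432 counts per 1000000 UMIs (CPM) in the cochlear cells and 131 to 437 CPM in the vestibular cells, and the summed vestibular markers at 25.9 to 49.4 and 267 to 864 CPM. In the 30 vestibular cells of E14.5 replicate 1 the cochlear markers, at 437 CPM, exceeded the vestibular ones, at 267 CPM. Fgf20, a cochlear marker, had 74.6 CPM there, against 5.69, 8.80 and 13.4 CPM in the vestibular cells of the other libraries. Both E12.5 libraries had Xist in 98.6% and 98.1% of cells and both E14.5 libraries had Y-linked transcripts in 93.0% and 92.9%, so age and sex cannot be told apart in any age comparison below. Markers of erythroid cells summed to 5035 CPM in the ganglion neurons and 3272 CPM in the mesenchyme of E14.5 replicate 1 and to at most 11.2 CPM in the other classes and libraries. The share of mitochondrial UMIs also moved with age, with cochlear medians of 3.68% and 3.68% against 5.51% and 4.67%. The part of these differences in the results was not tested.

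Levels below are CPM of the summed UMIs of a cell class in a library. The kit reads the 3′ end of each RNA, so the values are not scaled to gene length, and they are compared between cells for 1 gene at a time. Changes are log2 differences ± SE from edgeR's quasi-likelihood test on the sums, with Benjamini-Hochberg adjustment over all genes tested and a threshold of 0.05. In pooled sums, fewer expressing cells and less RNA per cell cannot be told apart, and the percent of cells with a UMI is given beside the level where it matters.

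**Figure D1:**
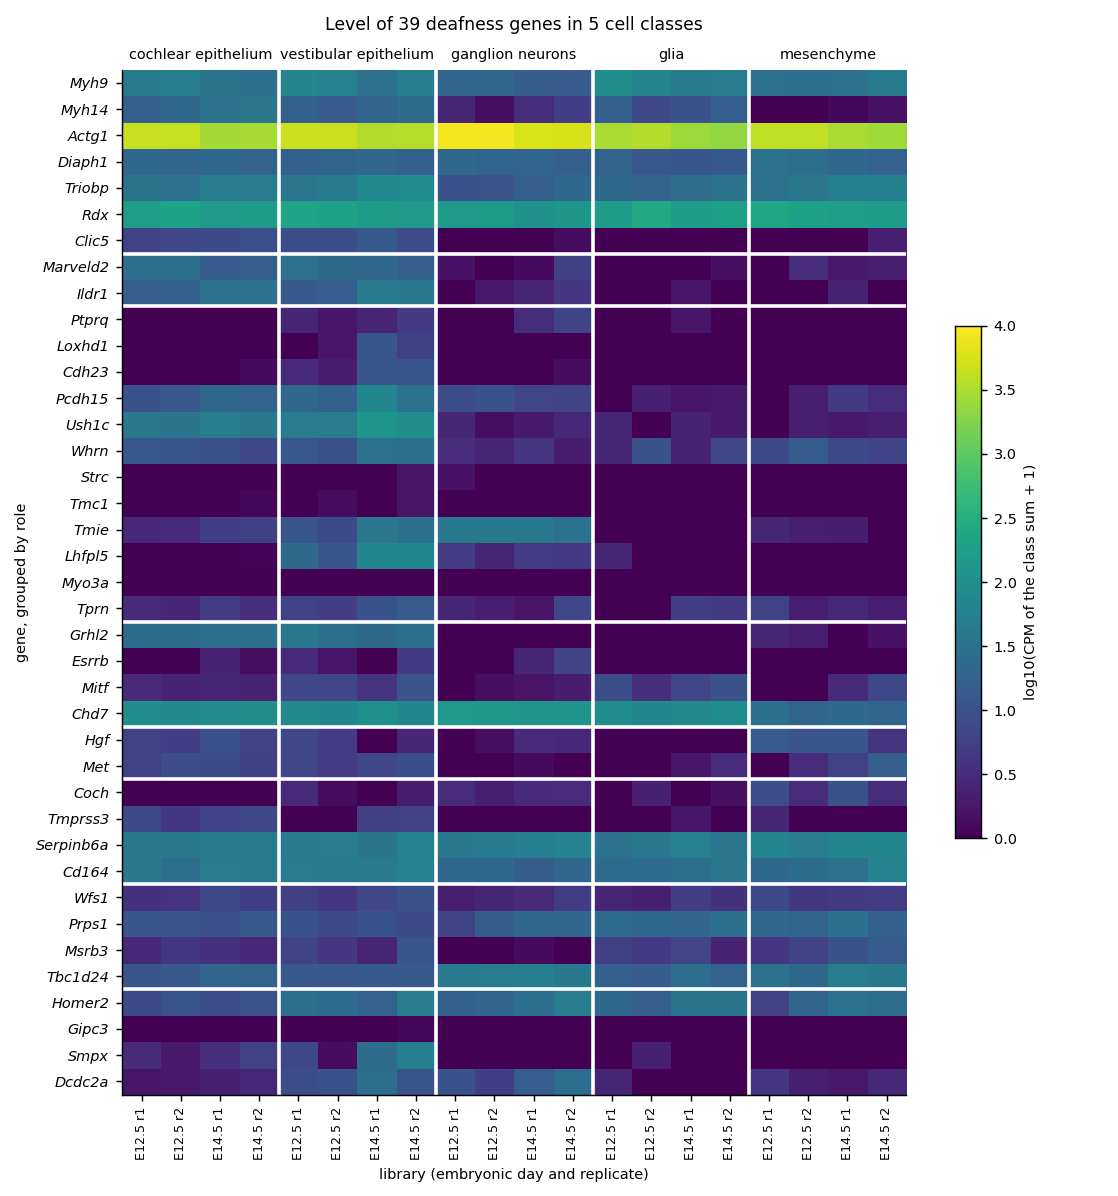
Heat map of log10(CPM + 1) for the 39 genes (rows, by role) in 5 cell classes, each with 4 columns for the 4 libraries. Actg1 is the brightest row in every class, Rdx is the next brightest in cochlear epithelium, and most hair bundle genes are darkest outside the vestibular columns.

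In the cochlear epithelium 33 of the 39 genes had at least 1 UMI, 29 had one in every library, 16 reached a median of 10 CPM and 2 (Actg1 and Rdx) a median of 100 CPM. Over all 28002 genes the same shares were 62.2%, 47.8% and, for 10 CPM, 29.8%. The 33 include Lhfpl5 with 1 UMI, Tmc1 with 2 and Cdh23 with 4. For comparison with genes that glia should lack, Oc90, an otoconial protein of the epithelia, had 14.4, 5, 2.19 and 2.33 CPM in glia, and Epcam 0 to 16 CPM there. In the vestibular epithelium 38 had a UMI and 20 reached 10 CPM, in ganglion neurons 32 and 13, in glia 28 and 12, and in mesenchyme 29 and 12. The 6 genes with no UMI in the 969 cochlear cells were Coch, Ptprq, Gipc3, Loxhd1, Strc and Myo3a, which allows each up to 0.310% of cells with a UMI (counting error only) and sets no limit on cells that express the gene. Myo3a, a hair cell myosin, had no UMI in any of the 5 classes, and Gipc3, an adaptor protein, had 1, in the vestibular epithelium of E14.5 replicate 2. By median level over the 4 libraries, 18 genes were highest in vestibular epithelium, 6 in mesenchyme, 5 in ganglion neurons, 4 in glia and 3 in cochlear epithelium (Myh14, Tmprss3 and Marveld2), and the remaining 3 had a median of 0 in every class. Of the 23 genes reaching a median of 10 CPM in some class, 9 were highest in vestibular epithelium, 4 in mesenchyme, 5 in ganglion neurons, 3 in glia and 2 in cochlear epithelium. Among all 10506 genes reaching that level, 18.5% were highest in vestibular epithelium, 16.3% in mesenchyme, 35.7% in ganglion neurons, 16.7% in glia and 12.7% in cochlear epithelium. For 3 of the 23 all 4 libraries of the highest class lay above every library of the class with the next highest median (Lhfpl5 in the vestibular epithelium, Actg1 and Chd7 in the ganglion neurons), against 25.8% of all genes at that level.

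Among the actin and motor genes, Actg1, the cytoplasmic gamma actin of the stereocilia core and cortex, had 4688, 4494, 2845 and 2957 CPM in cochlear epithelium, 4976, 4938, 3496 and 3600 in vestibular epithelium, 8738, 8820, 6029 and 5714 in ganglion neurons, and 3148, 3418, 2636 and 2229 in glia. In each of these 4 classes both E14.5 libraries lay below both E12.5 libraries. The decrease with age was -0.72 ± 0.06 in cochlear epithelium (edgeR adjusted p = 7.74e-06), -0.61 ± 0.07 in vestibular epithelium (adjusted p = 0.00259), -0.64 ± 0.06 in ganglion neurons (adjusted p = 2e-05) and -0.59 ± 0.09 in glia (adjusted p = 0.00135). Actg1 has close actin relatives and pseudogenes, so its counts may hold or miss reads shared with them. Within libraries the cochlear cells held less Actg1 than the neurons (-0.96 ± 0.06, edgeR adjusted p = 8.07e-06).

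Radixin (Rdx, chr9:52047173-52088735, GRCm38), which ties stereociliary membrane to actin, had 174, 206, 140 and 151 CPM in cochlear epithelium and was detected in 90.9, 92.3, 84.7 and 82.5% of its cells. It fell with age in the cochlear epithelium (-0.44 ± 0.10, edgeR adjusted p = 0.0092), in the vestibular epithelium (217, 191, 152 and 145 CPM, -0.59 ± 0.12, adjusted p = 0.0165) and in the ganglion neurons (142, 150, 109 and 129 CPM, -0.36 ± 0.11, adjusted p = 0.0269). In each of these 3 classes the lower E12.5 library stayed above the higher E14.5 library.

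The non-muscle myosins went opposite ways in the cochlear epithelium. Myh9, a broadly used non-muscle myosin heavy chain, had 44.5, 50.1, 33.6 and 27.8 CPM, and Myh14, its relative along epithelial junctions, had 15.7, 21.4, 31.9 and 38.1 CPM. The libraries of the 2 ages did not overlap for either gene, with -0.71 ± 0.14 for Myh9 (edgeR adjusted p = 0.00436) and 0.87 ± 0.18 for Myh14 (adjusted p = 0.00519), and cells with a Myh14 UMI went from 24.2 and 30.8% to 41.8 and 51.8%. In the mesenchyme, whose median depths were 11683, 12304, 15519 and 15461 UMIs against 19735.5, 19805.5, 14610 and 16120 in the cochlear cells, at most 1.39% of cells had a Myh14 UMI. Myh9 also fell in the glia, its highest class (93.0, 62.5, 43.7 and 48.5 CPM, -0.87 ± 0.22, edgeR adjusted p = 0.0272). Within the cochlea, Myh14 reached 52.6 and 47.6 CPM in the medial cluster of E14.5, against 10.8 to 20.6 CPM in the lateral clusters of all 4 libraries. No medial cluster was found among the E12.5 cochlear cells, against 47 of 177 and 246 of 504 cells at E14.5, and the medial markers summed to 98.1, 107, 606 and 688 CPM in the class. With the medial cluster left out, a choice made after seeing the data, Myh14 changed by 0.52 (edgeR adjusted p = 0.0367) and Myh9 by -0.62 (adjusted p = 0.00257).

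Triobp, which bundles the actin rootlets of stereocilia, rose with age in all 3 classes where otic epithelium or its neurons were read. Its cochlear levels were 35.5, 31.3, 46.7 and 47.7 CPM (0.45 ± 0.13, edgeR adjusted p = 0.0261), its vestibular levels 36.2, 44.7, 77.7 and 86.5 CPM (0.91 ± 0.16, adjusted p = 0.012), and its ganglion levels 9.09, 9.44, 15.3 and 21.6 CPM (0.92 ± 0.29, adjusted p = 0.0368). Both later libraries stood above both earlier ones in each class. The formin Diaph1 had 21.2, 19.4, 21.2 and 17.9 CPM in cochlear epithelium and passed no age test. Clic5, a protein of the stereocilia base, was nearly limited to epithelium, with 5.22, 6.27, 7.30 and 8.61 CPM in cochlear cells, 1 UMI in all 402 ganglion neurons, 2 in mesenchyme and none in glia.

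The tricellular junction genes also diverged. Marveld2 (tricellulin, chr13:100595957-100616971) and Ildr1 (angulin-2, chr16:36693978-36726804) both seal the corners where 3 epithelial cells meet. Marveld2 had 28.5, 27.9, 13.6 and 15.2 CPM in cochlear epithelium, and cells with a UMI went from 43.2 and 37.8% to 24.3 and 29.4%. Ildr1 had 15, 16.5, 31.4 and 30.5 CPM, and cells with a UMI went from 25.8 and 25% to 44.6 and 46.8%. Thus the ages did not overlap for either gene, Marveld2 being lower by -1.0 ± 0.16 (edgeR adjusted p = 0.00122) and Ildr1 higher by 0.91 ± 0.16 (1.88-fold, adjusted p = 0.00196). With every cell thinned to 5000 UMIs the shares kept these orders, at 14.3, 13.2, 6.50 and 7.35% for Marveld2 and 7.19, 8.03, 14.9 and 15.2% for Ildr1.

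Ildr1 rose in the vestibular epithelium too, from 11.9 and 14.7 CPM to 42.0 and 39 CPM (1.43 ± 0.22, edgeR adjusted p = 0.00661), while Marveld2 there had 30, 22.7, 20.2 and 15.4 CPM and did not pass (-0.80, adjusted p = 0.076). Among cochlear clusters the Marveld2 levels were uneven. The lateral cluster went from 37.2 and 37.9 to 12.4 and 10.2 CPM, the prosensory cluster from 23.9 and 23.4 to 6.92 and 14.3 CPM, and the roof had 26.6, 26, 23.2 and 25.8 CPM. These cluster values carry no test. Glia had 1 UMI of each gene against 429 of Marveld2 and 616 of Ildr1 in cochlear cells, ratios of 91.5 (95% counting interval 16.3 to 3624) and 131 (23.5 to 5200). Without E14.5 replicate 2 glia had no Marveld2 UMI, and the cochlear level was at least 21-fold higher (floor of 3 counts over the group), while the Ildr1 ratio was 61.3. Without E14.5 replicate 1 glia had no Ildr1 UMI, and the cochlear level was at least 30.4-fold higher.

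Over all genes, 25.2% of 11410 tested genes changed with age in the cochlear epithelium, 11% upward and 14.2% downward. Of the 39, 25 could be tested there, 10 passed, 6 higher and 4 lower at E14.5, and their median change was 0.12, beside 0.01 for all genes. In addition to the genes above, Pcdh15, Tmie and Tbc1d24 rose, and Tmie met the count filter in the E14.5 libraries alone. Without E12.5 replicate 2 the count was 5, 3 higher and 2 lower. In cells under 5% mitochondrial UMIs 1 was higher and 3 lower of 23 tested, and with DESeq2 2 were higher and 4 lower. With the E14.5 medial cluster left out 7 were higher and 4 lower of 24 tested, 8 of them among the 10. Pcdh15 then no longer passed (0.27, edgeR adjusted p = 0.566) and Tmie was too low to be tested. Groups that did not overlap were seen for 16 of the 25, against 65.7% of all genes tested.

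**Figure D2:**
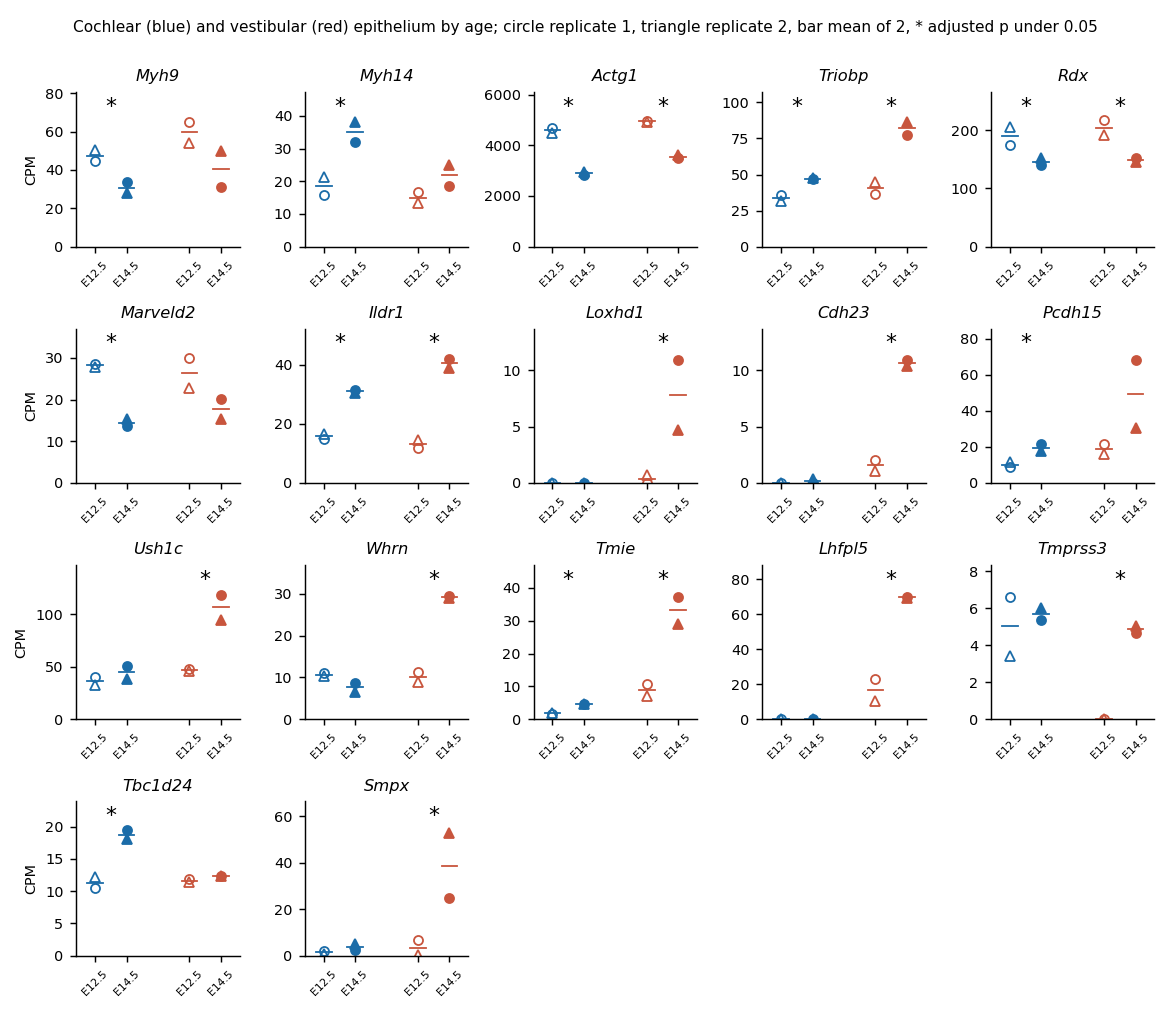
CPM in cochlear (blue) and vestibular (red) epithelium at E12.5 and E14.5 for the 17 genes that passed an age test in either class; circles are replicate 1, triangles replicate 2, bars the mean of 2 libraries, and an asterisk marks an adjusted p under 0.05. Marveld2 drops and Ildr1 climbs in blue, and the red points of Lhfpl5 and Tmie rise well above the blue ones at E14.5.

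In the vestibular epithelium 11.5% of 11048 tested genes changed with age, 4.72% upward and 6.82% downward, and 31 of the 39 could be tested. There 12 passed, 10 higher and 2 lower, with a median change of 0.52 beside 0.01 for all genes, and 22 had ages that did not overlap, against 58.5% of all genes. Of the 12 hair bundle and transduction genes, 8 could be tested and 6 rose (Ush1c, Whrn, Tmie, Lhfpl5, Cdh23 and Loxhd1). Cdh23, Loxhd1 and Tmprss3 met the count filter of 4.29 CPM in the E14.5 libraries alone, so a call for them had to be upward; 9 of the other 28 genes tested passed. In the cochlear epithelium 4 of the same 12 could be tested and 2 rose (Pcdh15 and Tmie).

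Lhfpl5 (chr17:28575641-28585679), a subunit of the transduction complex at the tip link, showed the widest gap between the epithelia. It had 23.3, 10.3, 69.9 and 69.5 CPM in vestibular cells and 0, 0, 0 and 0.0790 CPM in cochlear cells. All 4 vestibular libraries lay above all 4 cochlear ones, with 573 UMIs against 1, a ratio of 1120.2 (95% counting interval 200.2 to 44321; edgeR adjusted p = 8.29e-07). For this test Lhfpl5 met the count filter in the vestibular libraries alone, so a call had to be lower in the cochlea. Without E14.5 replicate 2, which held the single cochlear UMI, the vestibular level was at least 77.8-fold higher (floor of 3 counts over the group). The signal came from few cells, 3.61, 2.63, 10 and 10.3% of the vestibular cells, while mesenchyme had none. Its rise with age within the vestibular epithelium was 1.99 ± 0.30 (3.97-fold, edgeR adjusted p = 0.00609).

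Tmie (chr9:110865711-110880113), another subunit of that complex, was higher in vestibular than in cochlear epithelium and had its highest median in ganglion neurons. Vestibular and neuron levels overlapped at E14.5, and no test compared these classes. Its vestibular levels were 10.9, 6.97, 37.3 and 28.9 CPM and its cochlear levels 1.74, 1.99, 4.62 and 4.82 CPM, and both rose, by 1.71 ± 0.29 (edgeR adjusted p = 0.00953) and by 1.27 ± 0.41 (adjusted p = 0.0415). In neurons it had 39.2, 40.9, 38.5 and 30 CPM, with a UMI in 51.2, 42.0, 47.5 and 44.3% of cells, against 3.03, 4.49, 8.47 and 9.92% of cochlear cells and none of 308 glia. All 4 neuron libraries lay above all 4 cochlear ones, and the difference was -3.35 ± 0.30 (10.2-fold, edgeR adjusted p = 6.89e-05). Median depths were 21014, 20477.5, 19267.5 and 26246.5 UMIs in the neurons and 16254.5, 17969, 12243.5 and 12152.5 in the glia. Thinned to 5000 UMIs, 18.1, 17.1, 17.6 and 16.3% of neurons had a Tmie UMI, against 0.882, 0.967, 2.66 and 2.62% of cochlear cells.

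Of the tip link cadherins, Cdh23 forms the upper strand and Pcdh15 the lower one. Cdh23 had 2.07, 1.10, 10.9 and 10.4 CPM in vestibular cells and rose by 2.64 ± 0.49 (6.22-fold, edgeR adjusted p = 0.0132), with 4 UMIs in all cochlear cells. Pcdh15 was found in both epithelia, at 21.7, 16.1, 68.4 and 30.7 CPM in vestibular and 9.05, 11.4, 21.7 and 17.5 CPM in cochlear cells. The ages did not overlap in either epithelium, yet Pcdh15 passed in the cochlear cells (0.83 ± 0.21, edgeR adjusted p = 0.0148) and not in the vestibular cells (1.0, adjusted p = 0.117); this difference between the epithelia was not tested. Within the cochlea, Pcdh15 had 27.9 and 27.6 CPM in the medial cluster, 12.4, 6.16, 27.7 and 18.1 CPM in the prosensory cluster, and 1.21 to 8.31 CPM in the roof.

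Ush1c (harmonin, chr7:46195350-46238503), the scaffold that anchors Cdh23 to actin, was read in both epithelia. It had 40.7, 33, 50.9 and 38.4 CPM in cochlear cells and 48.1, 46.2, 118 and 94.9 CPM in vestibular cells. The ages overlapped in the cochlear epithelium (0.19, edgeR adjusted p = 0.424) and not in the vestibular epithelium, where Ush1c rose by 0.99 ± 0.15 (adjusted p = 0.00624). A UMI was present in 51.5, 48.7, 55.9 and 52.0% of cochlear cells and in 0, 1.49, 1.73 and 2.78% of mesenchymal cells. The cochlear level exceeded that of mesenchyme by 5.51 ± 0.33 (45.6-fold) and of ganglion neurons by 5.07 ± 0.28 (33.7-fold, edgeR adjusted p = 6.57e-06). In both comparisons Ush1c met the count filter in the cochlear libraries alone, so a call had to be upward in the cochlea.

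Ush1c differed between the cochlear clusters. In the prosensory cluster it went from 32.1 and 19.7 CPM to 85.3 and 69.1 CPM, while the lateral cluster had 56.4, 44.3, 51.9 and 47.5 CPM and the roof 37.5, 44.7, 30.9 and 33.1 CPM. These values carry no test. The ages were clustered separately: the prosensory cluster was led by Irx3, Fgf20 and Tectb at E12.5 and by Tectb, Fgf20 and Ntf3 at E14.5, where Irx3 and Tectb were also among the 10 leading genes of the medial cluster, so the clusters of the 2 ages may not hold the same cells.

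**Figure D3:**
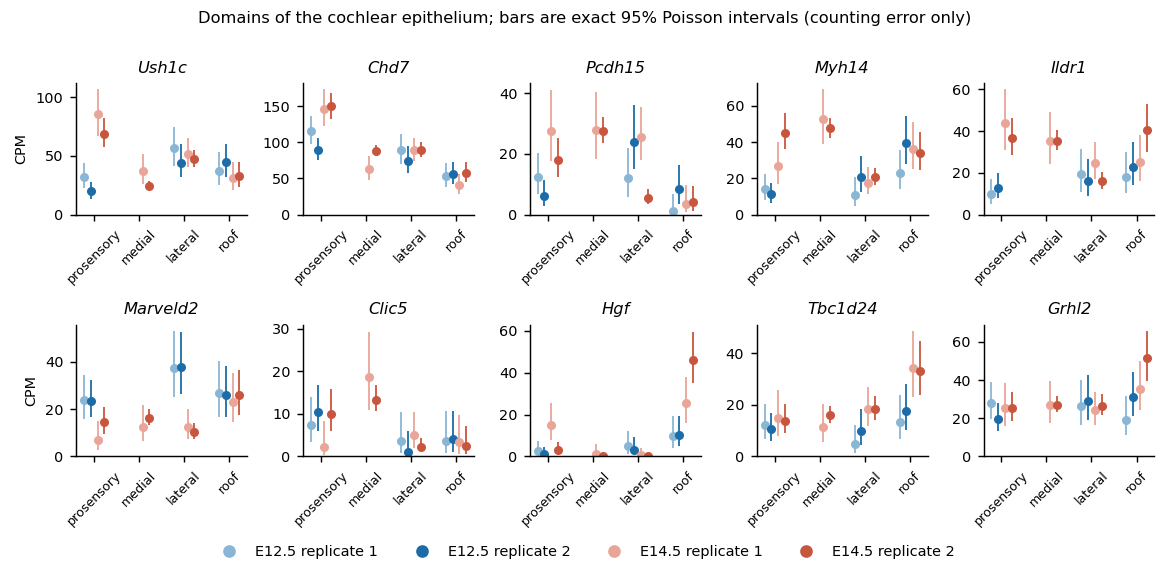
CPM with exact 95% Poisson intervals (counting error only) for 10 genes in the prosensory, medial, lateral and roof clusters of the cochlear epithelium, 1 point per library; the medial cluster was found at E14.5 only. Ush1c in the prosensory cluster moves from 32.1 and 19.7 CPM to 85.3 and 69.1 CPM, and Hgf stands out in the roof.

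Whrn (whirlin), a scaffold of the stereocilia tip and base, had 11.4, 8.80, 29.5 and 29 CPM in vestibular cells, with no overlap of ages, and rose there by 1.42 ± 0.25 (2.68-fold, edgeR adjusted p = 0.011). In cochlear cells it had 11.1, 10.3, 8.76 and 6.48 CPM and did not pass (-0.60, edgeR adjusted p = 0.113). Loxhd1, a stereocilia protein needed for hair cell function, was read in vestibular cells alone, with 0, 2, 7 and 31 UMIs, a ratio of E14.5 to E12.5 of 12.3 (95% counting interval 3.18 to 105). It was 25.3 without E14.5 replicate 2, 7.21 without E12.5 replicate 1 and at least 3.40 without E12.5 replicate 2. Tprn (taperin), at the stereocilia base, had 5.18, 4.4, 9.32 and 13.3 CPM in vestibular cells, above 2.09, 1.71, 3.89 and 2.61 CPM in cochlear cells in each library.

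Other members of the bundle had few UMIs. Tmc1, the pore subunit of the transduction channel, had 5 UMIs in vestibular and 2 in cochlear cells. Strc (stereocilin), which links stereocilia tops to the tectorial membrane, had 4 vestibular UMIs and 1 in a ganglion neuron. Ptprq, a phosphatase of the stereocilia shaft, had 30 vestibular UMIs and 22 ganglion UMIs, the latter all at E14.5, which puts E14.5 neurons at least 5.45-fold higher (floor of 3 counts over the E12.5 group). The bound was 3.28 without E14.5 replicate 2, 3.22 without E12.5 replicate 1 and 2.23 without E12.5 replicate 2.

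Cells already bearing hair cell factors held much of the vestibular signal. Vestibular cells with a UMI of Pou4f3 or Atoh1, transcription factors of new hair cells, numbered 8, 7, 9 and 54, or 9.64, 6.14, 30 and 22.3% of the class, against 0.758, 0, 0.565 and 5.36% of cochlear cells. All 573 vestibular Lhfpl5 UMIs lay in these cells, at 193, 128, 154 and 256 CPM, and the other vestibular cells had none. In these cells Tmie had 50.5 to 94.5 CPM against 1.77 to 5.70 CPM in the others, Cdh23 13.8 to 37.1 against 0 to 0.420, Pcdh15 32.1 to 130 against 14.7 to 17.1, and Tprn 9.17 to 38.8 against 0 to 3.98. Smpx, a small cytoskeletal protein of muscle and hair cells, had 4.59 to 193 CPM against 0 to 1.77, and Ptprq 3.42 to 13.5 CPM against 0. Median depths were 27861, 28819, 29002 and 24982 UMIs in the marked cells and 21083, 21685, 14214 and 19557 in the others.

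In total, 10 of the 39 genes had all 4 libraries of marked cells above all 4 of the others (the 7 just named with Clic5, Dcdc2a and Chd7) and 3 had all below (Myh9, Tbc1d24 and Mitf), against 3.0% and 4.59% of 17347 genes. No test was run on this split, which used 2 hair cell genes to choose the cells. The marked sums of E12.5 replicates 1 and 2 and E14.5 replicate 1 held 233685, 217984 and 292474 UMIs from 8, 7 and 9 cells. In such sums the lowest values of Ptprq (3.42 CPM), Smpx (4.59 CPM) and Tprn (9.17 CPM) rest on very few molecules. Chd7, a chromatin remodeller mutated in CHARGE syndrome, had 121 to 151 CPM in the marked cells and 54.4 to 71.2 CPM in the others, and Myh9 13.7 to 28.1 against 45.6 to 71.9 CPM.

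**Figure D4:**
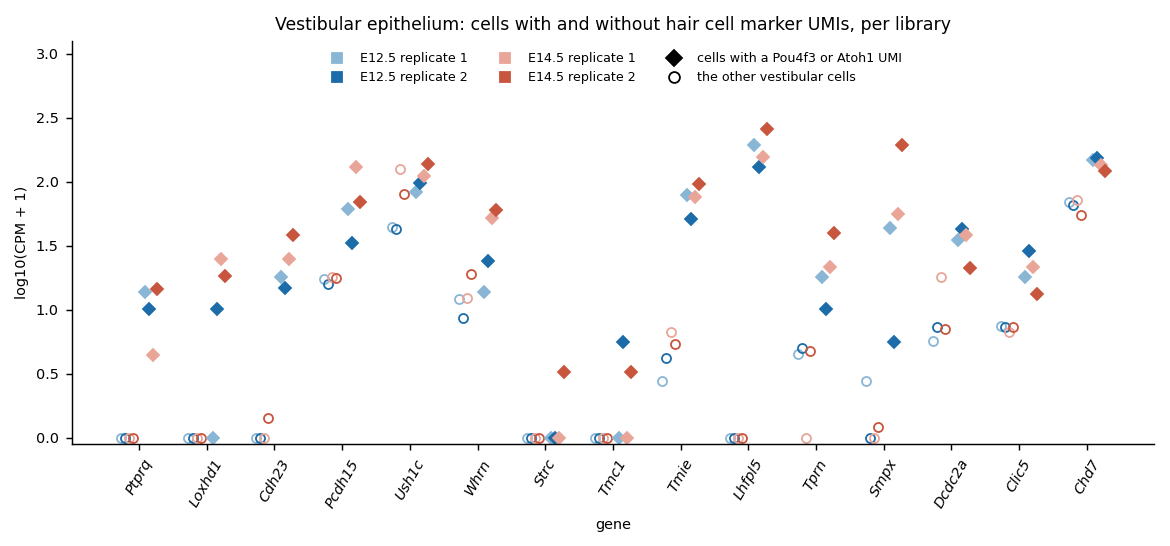
log10(CPM + 1) in vestibular cells with a Pou4f3 or Atoh1 UMI (diamonds) and in the other vestibular cells (circles) for 15 genes, 1 pair of points per library. The Lhfpl5 diamonds lie at 128 to 256 CPM with every circle at 0.

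Marked cells were more frequent at E14.5, and the vestibular age test was repeated without them, a choice made after seeing the data. Then 22 of the 39 could be tested and 4 passed: Ildr1 (1.42) and Ush1c (0.95) higher, Actg1 (-0.51) and Rdx (-0.57) lower. Triobp (0.50, edgeR adjusted p = 0.139) and Whrn (0.74, adjusted p = 0.252) no longer passed. Tmie, Lhfpl5, Cdh23, Loxhd1, Smpx and Tmprss3 were too low in the remaining cells to be tested. E14.5 replicate 1 gave 30 vestibular cells, 24 of them in the sensory cluster, and within the sensory cluster alone 12 of the 39 passed, 11 of them the same genes.

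Within libraries, 9.72% of 11165 tested genes differed between cochlear and vestibular epithelium, 3.99% higher and 5.73% lower in the cochlea. Of the 39, 29 were tested, none was higher and 9 were lower in the cochlea (14 at an unadjusted p under 0.05 in edgeR), with a median of -0.19 beside 0.02 for all genes. All 4 libraries went the same way for 11 of the 29, against 29.2% of all genes. Hair bundle genes made up 5 of the 9 (Lhfpl5, Tmie, Tprn, Pcdh15 and Ush1c), out of 6 tested. Lhfpl5 and Dcdc2a met the count filter in the vestibular libraries alone. The other 4 were Smpx, Dcdc2a, Homer2 and Triobp. Dcdc2a, a doublecortin family protein of cilia, had 8.28, 9.17, 26.4 and 9.93 CPM in vestibular and 0.696, 0.854, 1.22 and 1.82 CPM in cochlear cells. All 4 pairs went the same way without overlap, at -3.08 ± 0.37 (8.43-fold, edgeR adjusted p = 0.000849). Homer2, a postsynaptic scaffold, had 27.4, 24.2, 17.1 and 46.2 CPM against 6.61, 9.97, 8.27 and 9.71 CPM (-1.71 ± 0.21, edgeR adjusted p = 0.000999). Without the marked cells 7 genes passed, 2 higher and 5 lower in the cochlea, 3 of them among the 9, and without E14.5 replicate 2 the count was 5.

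Smpx (X chromosome) had 6.73, 0.367, 24.9 and 52.7 CPM in vestibular cells and 2.09, 0.854, 2.43 and 5.13 CPM in cochlear cells. The highest vestibular libraries were both from E14.5, where it rose by 3.74 ± 0.63 (13.3-fold, edgeR adjusted p = 0.00944), and 1 of the 4 libraries, E12.5 replicate 2, had less in vestibular than in cochlear cells. Its difference between the epithelia was -2.87 ± 0.39 (7.32-fold, edgeR adjusted p = 0.00162). In the cochlea its prosensory level went from 0 and 1.85 to 8.07 and 12.2 CPM.

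Among transcription factors, Grhl2 (chr15:37233036-37363569), a grainyhead-like activator of epithelial junction genes, followed the epithelium. It had 25.1, 25.3, 27.5 and 29.1 CPM in cochlear cells, with a UMI in 36.4, 36.5, 39 and 42.9% of them, and 38.8, 29, 23.3 and 28.9 CPM in vestibular cells. No UMI fell in 402 ganglion neurons or 308 glia and 3 fell in mesenchyme, so the cochlear level was at least 93.4-fold higher than in neurons and at least 45.7-fold higher than in glia (floor of 3 counts over the group), the latter at least 24.3-fold without E14.5 replicate 2. Grhl2 passed no age test, although its cochlear libraries at E14.5 both lay above those at E12.5 (0.12, edgeR adjusted p = 0.586).

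Promoters were searched for the letters that grainyhead-like factors are known to bind, since Grhl2 is on the list and the tricellular genes moved. The windows ran from 250 bases before to 50 after the start in RefSeq's table for GRCm38.p6, which matched 34 of the 39 genes (not Diaph1, Grhl2, Ptprq, Loxhd1 and Chd7). AACCGGTT, read on both strands, lay in 0.146% of 32851 windows and in none of the 34 genes. AACNGGTT, which includes AACCGGTT, lay in 2.09% of windows, in 634 of 27025 genes (2.35%) and in 2 of the 34 genes. These were Rdx, from base 118 before the start, at chr9:52046900-52047199 on the plus strand, and Prps1, from base 147 before the start, at chrX:140456353-140456652 on the plus strand. Both matches are to the letters on the minus strand, so the capitals show their reverse complement on the plus strand. These windows are shown because no other member's window held the letters; Rdx has a second window, at chr9:52047691-52047990, without a match.
Rdx: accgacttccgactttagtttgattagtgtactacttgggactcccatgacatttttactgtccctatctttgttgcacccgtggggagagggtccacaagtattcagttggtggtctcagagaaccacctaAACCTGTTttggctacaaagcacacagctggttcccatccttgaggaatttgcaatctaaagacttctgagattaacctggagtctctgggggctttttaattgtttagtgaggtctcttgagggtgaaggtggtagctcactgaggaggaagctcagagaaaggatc
Prps1: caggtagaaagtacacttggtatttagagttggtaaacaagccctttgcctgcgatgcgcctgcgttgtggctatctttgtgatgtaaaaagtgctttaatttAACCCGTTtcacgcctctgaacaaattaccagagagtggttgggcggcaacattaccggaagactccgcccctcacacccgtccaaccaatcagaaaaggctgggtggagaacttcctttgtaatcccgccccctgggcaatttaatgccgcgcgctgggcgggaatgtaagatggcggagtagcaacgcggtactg

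Chd7 was detected in 79.5, 75.0, 69.5 and 73.0% of cochlear cells, at 89.8, 76.6, 84.4 and 94.5 CPM, and its ages overlapped. Its highest class was the ganglion, with 147, 135, 120 and 118 CPM, all above the cochlear libraries, and there it fell with age (-0.31 ± 0.10, edgeR adjusted p = 0.041). Mesenchyme had 28.2, 19.2, 22.3 and 18.2 CPM, below every cochlear library (1.94 ± 0.16, 3.82-fold, edgeR adjusted p = 1.85e-05). Inside the cochlea Chd7 was highest in the prosensory cluster, with 115, 89.9, 146 and 150 CPM, and lowest in the roof, with 40.8 to 57.3 CPM.

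Mitf, the melanocyte regulator, was low in the 5 classes, with 1.42 to 2.09 CPM in cochlear cells and its highest median in glia (8.01, 2.50, 5.83 and 8.86 CPM), and the melanocyte markers of E12.5 replicate 2 glia summed to 295 CPM. Esrrb, an orphan nuclear receptor of the endolymph-secreting strial cells, had 0, 0, 6 and 5 UMIs in cochlear cells and 0, 0, 5 and 15 in ganglion neurons. That puts E14.5 neurons at least 4.95-fold higher (2.93 without E12.5 replicate 1, 2.03 without E12.5 replicate 2, 7.88 without E14.5 replicate 1 and 2.34 without E14.5 replicate 2), all from the Pvalb-led cluster, whereas its vestibular UMIs lay outside the sensory cluster.

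Both genes of the HGF pair were read in cochlear cells and mesenchyme. Hgf, the ligand, had 5.22, 4.27, 9.25 and 5.13 CPM in cochlear cells and 13.3, 10.2, 10.9 and 2.93 CPM in mesenchyme, and its receptor Met had 4.87, 7.69, 7.30 and 4.74 CPM in cochlear cells. The cochlear Hgf came mainly from the roof, with 9.67, 10.4, 25.4 and 46.0 CPM, against 1.03 and 0.339 CPM in the medial cluster. Neither passed an age test, and cochlear and mesenchymal levels overlapped for both. Ganglion neurons had 1 Met UMI against 131 in cochlear cells, a ratio of 57.1 (95% counting interval 10.1 to 2272), and at least 12.4-fold without E14.5 replicate 1, which held that UMI. Glia had no Hgf.

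Of the secreted proteins and proteases, Tmprss3, a transmembrane serine protease, was nearly limited to epithelium. It had 6.61, 3.42, 5.35 and 6.0 CPM in cochlear cells, no UMI in ganglion neurons (at least 18.7-fold lower, or 12.4-fold without E14.5 replicate 2), and 1 each in glia and mesenchyme. Vestibular cells had none in either E12.5 library and 3 and 33 UMIs in the later libraries, which were at least 7.78-fold higher (4.55 without E12.5 replicate 1 and 3.23 without E12.5 replicate 2). The 3 UMIs of E14.5 replicate 1 lay in 1 cell, and of the 33 in replicate 2, 25 lay in 13 cells with a hair cell marker UMI. The cochlear ages overlapped (0.18, edgeR adjusted p = 0.749). Coch (cochlin), a matrix protein of the spiral ligament and limbus, had no cochlear epithelial UMI and 8.29, 2.26, 8.73 and 2.34 CPM in mesenchyme, at least 50.6-fold more over all libraries. E14.5 replicate 1 held 40 of these 51 mesenchymal UMIs, and without it the bound was 21.9, without E14.5 replicate 2 27.1. Serpinb6a, a protease inhibitor with close relatives in its gene cluster, had 40.7, 40.7, 42.3 and 44.6 CPM in cochlear cells and was higher in mesenchyme (63.0, 48.7, 61.8 and 68.0 CPM) (-0.59 ± 0.14 as cochlear minus mesenchyme, edgeR adjusted p = 0.00953). Cd164, a sialomucin, had 38.6, 27.1, 46.0 and 45 CPM in cochlear cells and missed the age threshold (0.43, edgeR adjusted p = 0.0683).

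Among metabolic genes Tbc1d24, a regulator of vesicle traffic, rose in cochlear epithelium from 10.4 and 12.2 to 19.5 and 18 CPM (0.65 ± 0.19, edgeR adjusted p = 0.0301), without overlap of ages. It was higher in ganglion neurons (43.2, 48.4, 53.2 and 39.9 CPM) than in cochlear cells in all 4 libraries, by -1.60 ± 0.18 as cochlear minus ganglion (edgeR adjusted p = 0.0002). Prps1 (X chromosome), which makes the nucleotide precursor PRPP, had 10.4, 9.68, 8.52 and 12.3 CPM in cochlear cells and 24, 22.5, 18.9 and 27.5 CPM in glia, without overlap (-1.20 ± 0.20, edgeR adjusted p = 0.000422). Msrb3, a methionine sulfoxide reductase, had 1.74, 3.42, 2.92 and 1.90 CPM in cochlear cells and 3.31, 5.66, 8.73 and 13.5 CPM in mesenchyme (-1.84 ± 0.43, edgeR adjusted p = 0.01). Wfs1 (wolframin), of the endoplasmic reticulum, had 2.78, 3.13, 6.57 and 4.58 CPM in cochlear cells and was not called in any comparison.

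Shares of cells with a UMI were also read for these genes. Serpinb6a had one in 48.1 to 58.5% of cochlear cells and 52.4 to 76.1% of ganglion neurons. Cd164 had one in 44.9 to 53.8% of cochlear cells, 50.9 to 63.3% of vestibular cells and 30.8 to 37.5% of neurons. Tbc1d24 was found in 17.4 to 30.6% of cochlear cells and 58.3 to 64.8% of neurons, 2 ranges that did not overlap. Wfs1 and Msrb3 were in few cells, at 5.30 to 11.9% and 2.27 to 7.05% of cochlear cells, and Msrb3 reached 4.44 to 27.8% of mesenchymal cells. Homer2 had a UMI in 11.9 to 17.3% of cochlear and 26.7 to 50.8% of vestibular cells. Homer2 within the vestibular epithelium was higher outside the sensory cluster (37.2, 36.7, 27.4 and 56.7 CPM) than inside it (14.4, 6.25, 14.1 and 33.8 CPM) in each library. Lhfpl5 was the reverse, with 54.2, 25, 90.4 and 151 CPM inside and none outside. In E14.5 replicate 1 only 6 cells lay outside the sensory cluster, so its values there rest on few molecules.

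With age, 26.4% of 10644 genes changed in the ganglion neurons (13% higher, 13.4% lower), and of 15 members tested 6 passed, 3 each way, with a median of -0.28 beside 0.01 for all genes. The ages did not overlap for 13 of the 15, against 65.6% of all genes. Actg1, Rdx and Chd7 fell, and Triobp, Homer2 and Dcdc2a rose; Actg1, Rdx and Triobp went the same way in both epithelia. Homer2 went from 16.5 and 19.3 to 28.4 and 46.5 CPM (0.98 ± 0.25, edgeR adjusted p = 0.0147) and Dcdc2a from 9.09 and 4.33 to 14.7 and 27.1 CPM (1.63 ± 0.40, adjusted p = 0.0113). Markers of glia moved with age in the same cells, summing to 6.25, 9.05, 601 and 963 CPM, and their part in these results was not tested. Without E12.5 replicate 1 the count was 2 and without E12.5 replicate 2 it was 3.

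The 2 ganglion clusters of each age, here called the Nhlh1 and the Pvalb cluster, divided these genes. Nhlh1 was among the leading genes of its cluster at E12.5 only, and Pvalb at E12.5 and E14.5. The ages were clustered separately, so clusters of the same name may not hold the same cells. Tmie had 60.2, 74.7, 65.9 and 68.3 CPM in the Nhlh1 cluster and 12.8, 14.7, 12.2 and 11.9 CPM in the Pvalb cluster. Dcdc2a had 15.3, 9.01, 30 and 84.2 CPM against 1.28, 0.699, 0 and 0 CPM. Homer2 was the other way round, with 10.2, 9.91, 14.6 and 11.4 CPM against 24.4, 26.6, 41.7 and 63.2 CPM. In none of the 3 genes did the clusters overlap. When the neuroblast cluster of E12.5 was counted with the neurons, the sign of the Dcdc2a change turned to -1.85 (edgeR adjusted p = 0.000188).

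Against the neurons, 57.8% of 11293 genes differed from the cochlear epithelium, 28.5% higher and 29.4% lower, and 21 of 24 members passed, 15 higher and 6 lower in the cochlea, with a median of 1.16 beside -0.00 for all genes. Of the 15 higher, 8 met the count filter in the cochlear libraries alone, and of the 6 lower, Dcdc2a in the ganglion libraries alone. All 4 libraries went the same way for 22 of the 24, against 68.5% of all genes. The lower ones were Dcdc2a (-3.57 ± 0.33, 11.8-fold, edgeR adjusted p = 7.43e-05), Tmie, Homer2, Tbc1d24, Actg1 and Chd7. The higher ones were led by Grhl2, Clic5 (176 UMIs against 1, ratio 76.7, 95% counting interval 13.6 to 3047, at least 15.7-fold without E14.5 replicate 2) and Met. The age change itself differed between cochlear cells and neurons for 11.5% of 12149 genes (2.76% more positive, 8.7% more negative in the cochlea) and for 3 of 27 members: Pcdh15 (1.41 ± 0.42, edgeR adjusted p = 0.0419) and Tmie (1.51 ± 0.45, adjusted p = 0.04) moved up more in the cochlea, and Marveld2 (adjusted p = 0.041) down. Marveld2 in neurons rested on 1, 0, 1 and 13 UMIs, and without E14.5 replicate 2 it no longer passed (-1.56, edgeR adjusted p = 0.717). The count was 1 without E12.5 replicate 1 and 0 without E12.5 replicate 2.

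Against the glia, 35.7% of 10749 genes differed (17.9% higher and 17.8% lower in the cochlea), and 16 of 21 members passed, 13 higher and 3 lower, with a median of 0.68 beside 0.03. Of the 13 higher, 8 met the count filter in the cochlear libraries alone, Pcdh15 and Ush1c among them. All 4 libraries went the same way for 17 of the 21, against 48.9% of all genes. Glia had more Homer2 (20.8, 15, 35.0 and 35.5 CPM; -1.68 ± 0.24, edgeR adjusted p = 0.000143), Prps1 and Myh9. Pcdh15, with 0 to 1.25 CPM in glia, was higher in the cochlea by 4.29 ± 0.44 (19.5-fold) and Ush1c by 5.29 ± 0.33 (39.1-fold). With age 10.0% of 8781 genes changed in the glia (3.84% higher, 6.18% lower) and 2 of 12 members, Myh9 and Actg1, both downward, with a median of -0.03 beside 0.01. The ages did not overlap for 6 of the 12, against 56.9% of all genes.

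Against the mesenchyme, 28.8% of 11324 genes differed (13.2% higher, 15.6% lower), and 14 of 24 members passed, 9 higher and 5 lower in the cochlea, with a median of 0.08 beside -0.00. Of the 9 higher, 7 met the count filter in the cochlear libraries alone. All 4 libraries went the same way for 13 of the 24, against 46.4% of all genes. Mesenchyme had more Msrb3, Homer2, Tbc1d24, Prps1 and Serpinb6a, although in E12.5 replicate 1 Homer2 was lower there (4.97 against 6.61 CPM). The largest excess in the cochlea was in Myh14, with 734 UMIs against 2 (ratio 123, 95% counting interval 34 to 1019), then Grhl2, with 643 against 3 (72.0, 24.5 to 350; 29.6 without E14.5 replicate 1). Without E14.5 replicate 1 the count was 9, 8 higher and 1 lower, Tbc1d24 (-1.19, edgeR adjusted p = 0.0151), while Homer2 no longer passed (-1.01, adjusted p = 0.0965). Sorted mesenchyme differed in its green fluorescent protein, with an Egfp UMI in 84.4, 76.1, 45 and 8.33% of cells. With age 0.818% of 9410 genes changed in the mesenchyme (0.436% higher, 0.383% lower) and 0 of 14 members by edgeR (4 at an unadjusted p under 0.05, 0 by DESeq2), with a median of 0.25 beside 0.00. The ages did not overlap for 9 of the 14, against 52.3% of all genes. The count was 4 without E14.5 replicate 1 and 3 without E14.5 replicate 2. Met had 2 UMIs there in the earlier and 49 in the later libraries, a ratio of 5.79 (95% counting interval 1.52 to 49.2). It was 3.44 without E12.5 replicate 1, at least 1.57 without E12.5 replicate 2, 11.3 without E14.5 replicate 1 and 3.73 without E14.5 replicate 2.

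Other deafness genes, a list of 48 outside the 39, behaved as follows. In the cochlear epithelium 12 rose and 2 fell with age of 29 tested, among them Tecta, a tectorial membrane protein (3.62, edgeR adjusted p = 1.1e-07), Gjb2, the cochlear gap junction connexin 26 (1.34), Otog (1.31) and Crym (1.05). In the vestibular epithelium 14 rose and none fell of 33 tested, in ganglion neurons 5 and 2 of 19, in glia 2 and 1 of 11, and in mesenchyme 2 and 0 of 16. Sox10 (9.13) and Ednrb (7.86), both among the glia markers, were among those higher in the ganglion neurons. The glia markers in that class summed to 6.25, 9.05, 601 and 963 CPM, and their part in these counts was not tested. Shares over all genes in these comparisons are given above. Between the epithelia 3 were higher and 8 lower in the cochlea of 29 tested, the hair cell factor Pou4f3 among the lower and Gjb2 (2.27) among the higher.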

How the data were processed

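For each library the authors deposited a table of unnormalized counts of UMIs by gene and cell barcode. Cell Ranger 3.0.0 and mm10 are named for it in the submitters' processing notes. The library kit was a 10x Genomics single-cell 3′ kit, per the labels' protocols. Cells were required to show 1000 genes or more and a mitochondrial share below 10% (646, 682, 1565 and 3047 cells, with 12945421, 14822617, 39903952 and 74034411 UMIs in the libraries). Doublets called by scrublet at an expected rate of 6% numbered 2, 2, 4 and 2, below that rate, and doublets may remain. The labels do not say whether doublets were removed before deposit, and the reason for the few calls was not tested. Each age was clustered separately (scanpy 1.11.5, Leiden resolution 1) without the 39 genes and without cell cycle, ribosomal, mitochondrial, haemoglobin, histone, Xist, Y-linked and transgene features. Clusters were named from marker lists. The splitting of otic clusters, the exclusion of 2 glial clusters and of a neuroblast cluster, and the ganglion's need for Gata3 or Isl1 were chosen after seeing the data.

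Counts were summed per library and class and tested with edgeR 4.0.16 (TMM, filterByExpr, quasi-likelihood; R 4.3.3), with Benjamini-Hochberg adjustment over all genes. Classes were compared with the library as a block, and DESeq2 1.42.0 was an alternative. The age test in cochlear epithelium and the comparison of cochlear cells with neurons were also run on simulated counts. Those counts had the same dispersion for every gene, so they cannot show the error rates in these data. Of the 39 genes, 33 entered at least 1 test; Ptprq, Gipc3, Esrrb, Strc, Tmc1 and Myo3a entered none. Full values are given for genes passing an age test, for the 3 largest and smallest differences of each class comparison, for the 6 highest in cochlear cells and for those with under 3 counts in a class. Positions are from GENCODE vM21 and promoters from RefSeq. The members and lists were chosen with earlier results of these data known. Intervals and floors cover counting error only.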

Additional observations from a re-analysis of the deposited data

Results flagged for a closer look

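The change with age differed between cochlear epithelium and ganglion neurons, by an interaction term in edgeR, for 3 of the 39 genes. Marveld2 fell in the cochlear epithelium and had 1, 0, 1 and 13 UMIs in the neurons, giving a difference of -4.29 (edgeR adjusted p = 0.041) that rested on E14.5 replicate 2. Without that library it was -1.56 (adjusted p = 0.717 in edgeR). Pcdh15 moved up by 1.41 more in the cochlear epithelium (edgeR adjusted p = 0.0419), with 9.05, 11.4, 21.7 and 17.5 CPM there and 7.95, 9.05, 5.88 and 5.50 CPM in the neurons. Tmie moved up by 1.51 more (edgeR adjusted p = 0.04), with 1.74, 1.99, 4.62 and 4.82 CPM against 39.2, 40.9, 38.5 and 30 CPM. None of the 3 passed with DESeq2, under a limit of 5% mitochondrial UMIs, or in cells with an Egfp UMI.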

How the results depend on the processing

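Counts of the 39 genes passing were compared across alternatives. With DESeq2 they were 6 in cochlear epithelium by age (10 in edgeR), 5 in vestibular epithelium (12), 2 in ganglion neurons (6), 1 in glia (2) and 0 for the difference in age change between cochlear cells and neurons (3). Under 5% mitochondrial UMIs they were 4 in cochlear epithelium by age, 1 in mesenchyme (0), 10 against glia (16) and 0 for the difference in age change. In cells with an Egfp UMI they were 3 in ganglion neurons by age and 0 for the difference in age change. Without vestibular cells holding a Pou4f3 or Atoh1 UMI 4 passed by age. In glia 1 passed by age without the top 5% of doublet scores and 1 with all glial clusters. Without a filter on low counts 2 passed in mesenchyme by age and 17 between the epithelia (9). With the E12.5 neuroblast cluster added to the neurons, the change of Dcdc2a reversed to -1.85. The cause of these differences was not tested. Over all genes, edgeR called 2874, 1274, 2810, 880 and 77 by age in cochlear and vestibular epithelium, neurons, glia and mesenchyme, and DESeq2 1351, 437, 1239, 334 and 149.

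Leaving out 1 library at a time, with the lone library of an age assumed to vary like the other age, gave 5 to 13 in cochlear epithelium by age, 9 to 17 in vestibular epithelium, 2 to 9 in neurons, 2 to 3 in glia and 0 to 4 in mesenchyme. It gave 5 to 10 between the epithelia, 19 to 22 against neurons, 12 to 16 against glia, 9 to 14 against mesenchyme and 0 to 3 for the difference in age change. With the replicate number as a block, 10, 13, 7, 2 and 1 passed by age. The difference between replicates 1 and 2 at E12.5 correlated over genes with that at E14.5 at 0.00537 to 0.0624. With 1 such difference per age, these values cannot show whether the replicate numbers pair the samples. The limit of 5% mitochondrial UMIs left 17 cells in a vestibular library and the Egfp rule 6 in a mesenchymal one, so those fits were not run. At these depths a count of 0 allows up to 0.310% of cochlear cells or 0.974% of glia with a UMI and says nothing of cells that express a gene below capture.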

Other observations

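Several of the 39 genes were highest in E14.5 clusters outside the 5 classes, some with leading genes that are not known for the ear. These clusters were looked at after the values were seen. Homer2 had 714 CPM and a UMI in 99.4% of 320 cells in a cluster led by Gng13, an olfactory neuron marker, with Calb2 and Gfy. Coch had 46.4 CPM and a UMI in 54.7% of cells there. A cluster of 326 cells led by Bpifa1, Cbr2 and Cyp2g1 held the highest Myh14 (84.2 CPM), Ildr1 (66.2 CPM), Grhl2 (52.3 CPM) and Met (27.2 CPM). Serpinb6a had 386 CPM in 120 cells led by S100a8, Lyz2 and C1qb, genes of myeloid cells. Myh9 had 181 CPM in 35 cells led by Cdh5, Cldn5 and Emcn, genes of endothelium. Mitf had 37.9 CPM in 323 cells led by Npy and Dct, with a UMI in 13% of them. This cluster was named glial, with Foxd3 and Ednrb also among its leading genes, and had been left out of the glia class. Dct is a melanocyte marker, and whether the cluster mixes glia with melanocyte precursors was not tested.

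At E12.5 a cluster of 69 cells led by Fgf8, Actc1 and Neurod1 held the highest Dcdc2a, with 230.5 CPM and a UMI in 85.5% of cells, against 4.33 to 27.1 CPM in the ganglion neurons of the 4 libraries. This was the neuroblast cluster that had been left out of the ganglion neurons.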
